A study of Mus musculus with 38 samples.

Results

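Whrn and Wnk2 are 2 of the 29564 genes listed in these left ventricle transcriptomes. They were chosen as genes that were higher in mice given empagliflozin than in mice given vehicle, so that comparison is described here without a test. Both genes were among the 13765 genes with enough reads to be tested. The 38 libraries, 1 per mouse, came from wild-type C57BL6 mice (C57BL/6J in the methods of the study) in 4 groups. The non_failing group (n = 8) had no heart failure induction and carried the treatment label Vehicle. The HFpEF+Veh group (n = 8) modelled heart failure with preserved ejection fraction by a high-fat diet with L-NAME, a drug that blocks nitric oxide synthesis, and received vehicle. The same model received TYA-018, a small molecule inhibitor of the deacetylase HDAC6, in HFpEF+TYA-018 (n = 11), or empagliflozin, an inhibitor of the renal glucose transporter SGLT2, in HFpEF+SGLT2i (n = 11). Vehicle or drug was given by mouth once a day to established disease, and the model is one of diet and drug in a single inbred strain. The labels give no age. The labels name the mice female and the methods of the study name them male. The Y-linked gene Ddx3y was at 17.8 CPM (counts per 1000000 counts of the library) or more in all 38 libraries, as in male mice.

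Wnk2 belongs to the WNK (with no lysine) kinases, which take their name from an unusual position of the catalytic lysine. These kinases respond to chloride and to osmotic stress. They phosphorylate SPAK (gene Stk39) and OSR1 (gene Oxsr1), which in turn switch sodium-coupled chloride importers on and potassium-chloride exporters off. Wnk2 is best known from the brain, and it has been described as a brake on growth factor signalling through ERK. Whrn encodes whirlin, a scaffold protein with PDZ domains that is known from the stereocilia of inner ear hair cells and from photoreceptors. There it binds ADGRV1 and PDZD7, and it travels to stereocilia tips with the motor myosin XV and the actin regulator Eps8. Neither gene is a classical marker of heart muscle.

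On GRCm38, Whrn (ENSMUSG00000039137.18) lies on the minus strand at chr4:63414910-63495991. Wnk2 (ENSMUSG00000037989.15) lies on the minus strand at chr13:49036303-49148014. GENCODE M21 gives 17 transcripts for Whrn, of which 10 are protein-coding and run from 590 to 4049 bases. It gives 11 for Wnk2, of which 10 are protein-coding and run from 3392 to 6897 bases. No other annotated gene overlaps either of them on either strand. The 250 bases before each RefSeq start are shown because both genes had their lowest group mean in the same group. The Whrn window is chr4:63495992-63496241 and the Wnk2 window is chr13:49148329-49148578, both on the minus strand of GRCm38.p6 and credited to RefSeq, and capitals mark the motif matches described next.
Whrn: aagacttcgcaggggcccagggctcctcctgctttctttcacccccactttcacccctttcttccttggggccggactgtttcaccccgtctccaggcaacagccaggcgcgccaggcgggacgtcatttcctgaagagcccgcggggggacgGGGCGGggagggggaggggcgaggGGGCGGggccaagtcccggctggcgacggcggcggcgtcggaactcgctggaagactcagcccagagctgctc
Wnk2: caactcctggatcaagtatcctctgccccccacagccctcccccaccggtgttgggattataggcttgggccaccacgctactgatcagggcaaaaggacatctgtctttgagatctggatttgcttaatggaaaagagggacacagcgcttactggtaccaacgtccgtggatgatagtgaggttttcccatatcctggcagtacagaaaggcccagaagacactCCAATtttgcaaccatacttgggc

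The 2 windows differ in composition. The Whrn window is 69.6% G or C with 21 CpG pairs, and 90.2% of the 32851 mouse windows of this length had a lower G and C content. The Wnk2 window is 51.6% G or C with 5 CpG pairs, close to the median window (52.4% and 6 CpG pairs). The RefSeq start of Wnk2 lies 314 bases upstream of the GENCODE M21 start, so its window is not the sequence directly before the start of the GENCODE transcripts. Whrn held the GC box GGGCGG at 2 places, beginning 97 and 73 bases before the start, and 32.7% of all windows held it on either strand. Wnk2 held the letters CCAAT once, 24 bases before the start, as did 33.8% of all windows at least once. Neither window held the E box CACGTG, the TATA box TATAAA, the cyclic AMP element TGACGTCA, the nuclear receptor half-site AGGTCA, the MEF2 site CTAAAAATA or the GATA site AGATAA. These matches describe letters and not binding sites.

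One vehicle library, V2523, stood apart from the others through transcripts of the liver, and the results against HFpEF+Veh are given with and without it further on.
Whrn was lowest in HFpEF+Veh and at similar levels in the other 3 groups. In TPM, a length-corrected share out of 1000000 transcripts, Whrn ran from 2.95 through a median of 5.34 to 6.93 in non_failing. It ran from 3.41 through 4.21 to 4.47 in HFpEF+Veh. With TYA-018 the lowest, median and highest libraries were at 3.60, 5.20 and 8.73 TPM. In HFpEF+SGLT2i they were at 4.18, 5.38 and 6.44 TPM. Vehicle libraries were thus low and close together, with no vehicle library reaching the median of any other group, but the ranges of all groups overlapped. The vehicle mean was 4.15 ± 0.351 TPM (SD, n = 8), against 5.11 ± 1.19 (SD, n = 8) for the non_failing mice. The mean was 5.31 ± 1.48 TPM (SD, n = 11) under TYA-018 and 5.24 ± 0.816 (SD, n = 11) under empagliflozin. In order from low to high, HFpEF+Veh stood below non_failing, HFpEF+SGLT2i and HFpEF+TYA-018, and neighbours among those 3 differed by less than 1 SD. Leaving mitochondrially encoded genes out of TPM gave group means of Whrn from 6.84 to 8.86 TPM, in the same order of groups.

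Wnk2 was also lowest in HFpEF+Veh, and its level per length was above that of Whrn in each group mean. It ran from 4.34 through a median of 8.19 to 11.5 TPM in non_failing. In HFpEF+Veh it ran from 5.55 through 7.03 to 7.82 TPM. With TYA-018 the lowest, median and highest libraries were at 5.70, 9.07 and 12.5 TPM. In HFpEF+SGLT2i they were at 6.79, 10.1 and 10.9 TPM, and 10 of the 11 lay above the highest vehicle library. The vehicle mean was 6.89 ± 0.805 TPM (SD, n = 8), against 8.20 ± 2.01 (SD, n = 8) for the non_failing mice. The mean was 9.33 ± 2.14 TPM (SD, n = 11) under TYA-018 and 9.63 ± 1.35 (SD, n = 11) under empagliflozin. From low to high the order was HFpEF+Veh, non_failing, HFpEF+TYA-018 and HFpEF+SGLT2i, with each step between the last 3 smaller than 1 SD. Without mitochondrially encoded genes in TPM, the group means of Wnk2 ran from 11.3 to 16.0 TPM in the same order of groups. The non_failing mouse V2507 was the lowest of its group for both genes. Ventricle homogenates hold many cell types, so fewer cells of a type that carries these transcripts and less transcript per cell cannot be told apart.

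**Figure D1:**
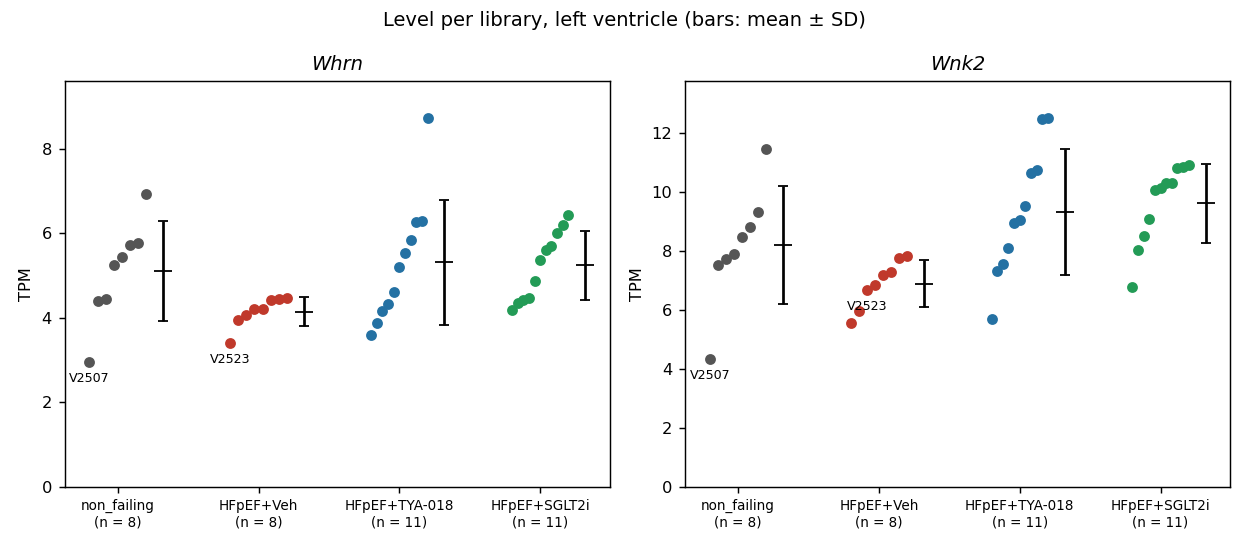
TPM of Whrn (left) and Wnk2 (right) in each library, by group on the horizontal axis. Points are libraries in ascending order, bars give the mean ± SD, and V2507 and V2523 are named. The 8 HFpEF+Veh libraries sit between 3.41 and 4.47 TPM for Whrn and between 5.55 and 7.82 TPM for Wnk2.

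The comparison of HFpEF+SGLT2i with HFpEF+Veh asked what empagliflozin changed in the failing ventricle, and it is the one the genes were chosen on. Values here are CPM on library sizes scaled by TMM, a method that sets aside the most different genes. On this scale Whrn ran from 11.9 to 16.2 CPM in HFpEF+Veh and from 16.4 to 22.0 CPM in HFpEF+SGLT2i. The 2 groups therefore did not overlap, although the gap between 16.2 and 16.4 CPM was narrow and the same groups did overlap in TPM. Over all tested genes, 2 (0.0145%) had every HFpEF+SGLT2i library above every HFpEF+Veh library, Whrn and Ucp3, a mitochondrial uncoupling protein named after its values were seen. Wnk2 ran from 29.7 to 45.8 CPM in HFpEF+Veh and from 44.0 to 61.6 CPM in HFpEF+SGLT2i. Only the lowest HFpEF+SGLT2i library fell below the highest vehicle library, V2532. The fitted log2 fold change was 0.45 (SE 0.12) for Whrn and 0.52 (SE 0.12) for Wnk2, which are 1.37-fold and 1.43-fold. All 11 HFpEF+SGLT2i libraries lay above the vehicle mean of log2 CPM for both genes, and counts of libraries above or below a mean are on this scale throughout. Of all tested genes, 117 (0.850%) passed an adjusted p of 0.05 in this comparison with edgeR's quasi-likelihood test, 18 higher and 99 lower. The higher share of these calls was 15.4%, 2.68% with library size alone, 60% without V2523 and V2532, and 2 of 2 genes without V2523. These counts come from the contrast that chose the 2 genes and are no evidence about them.

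**Figure D2:**
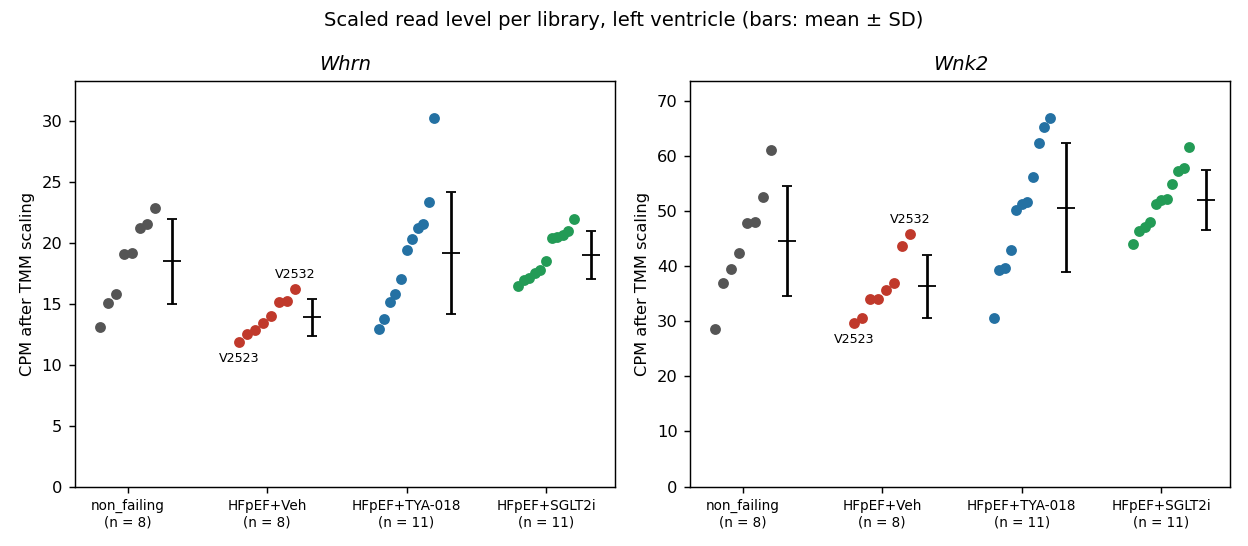
CPM of Whrn (left) and Wnk2 (right) after TMM scaling in each library, by group on the horizontal axis. Points are libraries in ascending order, bars give the mean ± SD, and V2523 and V2532 are named. Whrn in HFpEF+SGLT2i starts at 16.4 CPM, just above the highest vehicle library at 16.2 CPM.

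HFpEF+TYA-018 was higher than HFpEF+Veh by a similar amount. The vehicle libraries in this comparison are those of the contrast that chose the genes, so a low vehicle group enters both. Whrn ran from 12.9 to 30.3 CPM in HFpEF+TYA-018, and 7 of the 11 libraries lay above the highest vehicle library. The log2 fold change was 0.46 (SE 0.12), with 9 of 11 libraries above the vehicle mean (edgeR, adjusted p = 0.0332). Wnk2 ran from 30.6 to 66.9 CPM, again with 7 of 11 libraries above the highest vehicle library. Its log2 fold change was 0.48 (SE 0.12), with 10 of 11 above the vehicle mean (edgeR, adjusted p = 0.0355). In this comparison 266 genes (1.93%) passed, 115 higher and 151 lower, and since the choice used the same vehicle libraries, the calls of Whrn and Wnk2 partly repeat it and are no separate evidence. The higher share of these calls was 43.2%, 2.28% with library size alone, 54.0% with DESeq2, 74.1% with the 2 groups alone and 122 of 196 genes without V2523. Both calls were lost without the vehicle library V2523 (adjusted p = 0.0604 for Whrn and 0.0640 for Wnk2), while the fold changes stayed at 0.43 and 0.44. They were lost as well, with values from 0.37 to 0.48, without any of 8 other vehicle or TYA-018 libraries for Whrn and 11 for Wnk2. The TYA-018 libraries were also more spread than the empagliflozin libraries. The SD of log2 CPM for Whrn was 0.365 in HFpEF+TYA-018 and 0.148 in HFpEF+SGLT2i, and for Wnk2 it was 0.351 and 0.150. These spreads were not tested.

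HFpEF+Veh against non_failing shows the change with the disease model. Whrn was lower in HFpEF+Veh by a log2 fold change of -0.41 (SE 0.13), with all 8 vehicle libraries below the non_failing mean, and this did not pass (edgeR, adjusted p = 0.0694). Wnk2 had a log2 fold change of -0.30 (SE 0.13), with 7 of 8 libraries below the non_failing mean, and did not pass either (adjusted p = 0.254). In this comparison 433 genes (3.15%) passed, 243 higher (56.1%, and 79.5% with library size alone) and 190 lower. The call for Whrn turned on the tool and on single libraries. DESeq2 gave an adjusted p of 0.0443, and leaving out the non_failing mouse V2507 gave -0.48 with an adjusted p of 0.0276. The vehicle libraries are again those of the choosing contrast.

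Treated and non_failing hearts had similar levels, with wide intervals. HFpEF+TYA-018 against non_failing shares no library with HFpEF+SGLT2i against HFpEF+Veh, but earlier results on all 4 groups were known when the genes were chosen. Whrn had a log2 fold change of 0.05 (95% interval -0.19 to 0.29, adjusted p = 0.849 in edgeR), and its sign turned to -0.01 when library sizes were used without TMM scaling. Wnk2 had 0.18 (95% interval -0.07 to 0.43, adjusted p = 0.418 in edgeR). In that comparison 1017 genes (7.39%) passed, 54.2% of them higher, and 28.5% with library size alone. For HFpEF+SGLT2i against non_failing, described without a test, the log2 fold change was 0.04 (95% interval -0.20 to 0.28) for Whrn and 0.22 (95% interval -0.03 to 0.47) for Wnk2, with all 11 libraries above the non_failing mean for Wnk2. That comparison had 888 genes past the threshold (6.45%). The intervals do not show that the levels were equal.

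The 2 drugs were not separable by either gene. HFpEF+SGLT2i against HFpEF+TYA-018, also without a test, gave a log2 fold change of -0.01 (95% interval -0.23 to 0.21) for Whrn and 0.04 (95% interval -0.19 to 0.27) for Wnk2. The sign of such small values changed between alternatives. No gene passed in that comparison (0%) with edgeR, although 1821 had an unadjusted p under 0.05 and DESeq2 called 187.

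**Figure D3:**
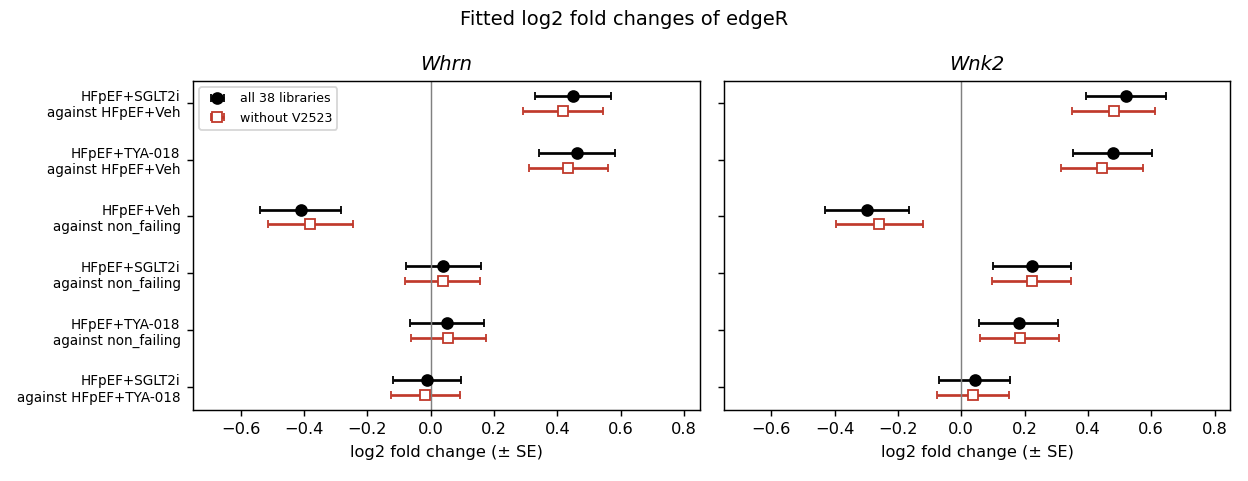
Fitted log2 fold change ± SE of Whrn (left) and Wnk2 (right) in 6 comparisons, named on the vertical axis. Filled circles use all 38 libraries and open squares leave out V2523. The values against HFpEF+Veh lie between 0.42 and 0.52, and those between a drug and non_failing lie between 0.04 and 0.22.

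The vehicle library V2523 stood apart and bears on every value against HFpEF+Veh. It held 1141 CPM of the liver transcript Alb where the other 7 vehicle libraries held at most 21.7 CPM, and all 13 listed hepatocyte genes were higher in it than in each of those 7. It was the lowest vehicle library for both members in CPM. Without it, Whrn had a log2 fold change of 0.42 (SE 0.12) and Wnk2 0.48 (SE 0.13) in HFpEF+SGLT2i against HFpEF+Veh, and 2 genes (0.0145%) passed there, Pdk4 and Ucp3, named after their values were seen. The mean of the other 7 vehicle libraries was 4.25 ± 0.199 TPM (SD, n = 7) for Whrn and 6.92 ± 0.864 (SD, n = 7) for Wnk2. Against non_failing, leaving it out gave -0.38 for Whrn and -0.26 for Wnk2. Each fold change against vehicle was closer to 0 without it and kept its sign, and the calls with TYA-018 were lost as given above. The part that liver transcripts had in the full-group values was not tested beyond this.

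Summed marker lists gave the cell make-up beside these values. All 12 cardiomyocyte markers were detected, and their summed level ran from 25506 to 36231 TPM in the non_failing mice and from 24667 to 29605 with vehicle. It ran from 24945 to 30985 TPM with TYA-018 and from 19267 to 29591 with empagliflozin. Of these 12, 4 passed as lower in HFpEF+Veh, 4 in HFpEF+SGLT2i and 1 in HFpEF+TYA-018, each against non_failing. Over all genes, 3.15%, 6.45% and 7.39% passed in the same order. With either drug against vehicle 0 of the 12 passed by edgeR. Fibroblast markers summed to 382 to 607 TPM in the non_failing mice and 432 to 1018 with vehicle. Their sums were 387 to 745 TPM with TYA-018 and 437 to 719 with empagliflozin. Of 9 tested, 3 passed as higher in HFpEF+Veh against non_failing, beside 3.15% of all genes. Also against non_failing, 1 passed as higher with TYA-018, and 1 as higher and 1 as lower with empagliflozin. The shares of all genes were 7.39% and 6.45% there. Against vehicle 0 of the 9 passed with either drug, beside 1.93% of all genes with TYA-018 and 0.850% with empagliflozin. Their log2 fold changes were negative in 9 with TYA-018 (median -0.27). With empagliflozin 8 were negative and 1 positive (median -0.28). Hepatocyte markers summed to 41.4 to 406 TPM in the non_failing mice, to 18.6 to 1786 TPM with vehicle (median 28.6) and to at most 34.5 TPM in the drug groups, so every drug library lay below every non_failing one. All 13 passed as lower with each drug against vehicle, and 11 with TYA-018 and 10 with empagliflozin against non_failing. Over all genes, 1.93% passed with TYA-018 and 0.850% with empagliflozin against vehicle, and 7.39% and 6.45% against non_failing. The vehicle group holds V2523, the library high in liver transcripts. Fast skeletal muscle markers summed to 42.2 to 143 TPM in HFpEF+Veh and 19.0 to 42.0 TPM in non_failing. Of the 5 tested, 3 passed as higher in vehicle, beside 3.15% of all genes. These markers summed to 32.8 to 67.1 TPM with TYA-018 and 36.5 to 52.5 TPM with empagliflozin. Against vehicle 2 passed as lower with TYA-018 (Tnnt3, Atp2a1) and 3 with empagliflozin (those and Tnni2), beside 1.93% and 0.850% of all genes. The genes listed as atrial summed to a median of 137 TPM in non_failing, 134 with vehicle, 120 with TYA-018 and 99.7 with empagliflozin. Of the 6 tested, 1, the transcription factor Tbx5, passed as higher with each drug against vehicle. Over all genes, 1.93% passed there with TYA-018 and 0.850% with empagliflozin. Bmp10 passed as higher in all 3 HFpEF groups against non_failing, beside 3.15% to 7.39% of all genes. In each of these groups 3 of the 6 had a positive and 3 a negative log2 fold change against non_failing. With each drug against vehicle, 4 were positive and 2 negative. The pericyte markers Rgs5 and Abcc9 passed as lower in HFpEF+Veh against non_failing, 2 of 9 tested pericyte and smooth muscle markers, beside 3.15% of all genes. Of these 9, 6 had a positive and 3 a negative log2 fold change there, with a median of 0.05. In HFpEF+TYA-018 against non_failing, 1 passed as higher and 1 as lower, beside 7.39% of all genes. Without V2523 the marker calls with empagliflozin against vehicle all ended, since Pdk4 and Ucp3 were then the 2 genes that passed. The marker calls with TYA-018 against vehicle in the fit without V2523 are not given here. No listed marker was at 0 in every library. What part these shifts had in the levels of Whrn and Wnk2 was not tested.

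The depth of the libraries set the counting error of the 2 genes. Libraries held 21451631 to 59280407 counts, Whrn 353 to 1027 of them and Wnk2 772 to 3356. The counting error was at most 5.32% for Whrn and 3.60% for Wnk2, beside coefficients of variation between mice of 8.46% to 27.8% and 11.7% to 24.5% in TPM.

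Effective length was not itself the measure of the choice, but TPM is corrected by it, so it is not independent of the levels above. The effective length of a gene, in bases, is averaged over its transcripts by their estimated abundance in a library. The authors ran salmon, which estimated these lengths, with corrections for sequence, G and C content, and position bias. The value is therefore not the plain transcript length, and it can shift with the library as well as with transcript use. For Whrn it averaged 2685 ± 357 bases (SD, n = 8) with vehicle and 2778 ± 187 (SD, n = 8) without the model. Under the drugs it averaged 2615 ± 308 bases (SD, n = 11) for TYA-018 and 2851 ± 357 (SD, n = 11) for empagliflozin. For Wnk2 the 4 averages were 4199 ± 396, 4175 ± 290.3, 3901 ± 227 and 4232 ± 285 bases in the same order. None of the 12 differences passed a two-sided permutation test adjusted over the 12. The lowest was Wnk2 in HFpEF+SGLT2i against HFpEF+TYA-018, longer by a ratio of 1.08 between geometric means, with a permutation p of 0.00551 and an adjusted p of 0.0661. Effective lengths of all genes moved between libraries as well, and after dividing by each library's median shift the same difference had an adjusted permutation p of 0.530. For Whrn in HFpEF+SGLT2i against HFpEF+Veh the adjusted p was 0.601 by an exact permutation test. A change in effective length was thus not detected with all libraries, and these lengths do not show whether transcript use was the same. Before that division, the Wnk2 difference between the drugs passed without V2543, V2548 or V2561 (adjusted permutation p down to 0.0242). Wnk2 in HFpEF+TYA-018 against non_failing passed without V2502 (adjusted permutation p = 0.0351).

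Within groups, the levels of the 2 genes were correlated among mice in 2 of the 4 groups, and single libraries ended both calls. In HFpEF+Veh, Pearson's r of their log2 CPM was 0.87 and Spearman's rho 0.90 over 8 mice (exact permutation p = 0.00570 and 0.00456, adjusted 0.0115 and 0.00913). In HFpEF+TYA-018, r was 0.77 and rho 0.81 over 11 mice (permutation p = 0.00573 and 0.00396, adjusted 0.0115 and 0.00913). In non_failing, r was 0.58 and rho 0.40 over 8 mice (exact permutation p = 0.130 and 0.327, adjusted 0.174 and 0.436). In HFpEF+SGLT2i, r was -0.08 and rho -0.05 over 11 mice (permutation p = 0.802 and 0.903, which the adjustment over 4 groups left as they were). The call in HFpEF+Veh ended without V2523 (r = 0.82, adjusted exact permutation p = 0.0552) or V2532 (r = 0.79, adjusted exact permutation p = 0.0599), and that in HFpEF+TYA-018 without V2555 (r = 0.69, adjusted permutation p = 0.0546). V2523 was the lowest vehicle library for both genes in CPM and V2532 the highest. The difference between groups in r was not tested. Without the 2 mice farthest from the median of Whrn, r was 0.69 in HFpEF+Veh, 0.60 in HFpEF+TYA-018, -0.10 in non_failing and 0.00 in HFpEF+SGLT2i. In log2(TPM + 1), neither relation passed, with r of 0.17 in HFpEF+Veh (adjusted exact permutation p = 0.898) and 0.62 in HFpEF+TYA-018 (adjusted permutation p = 0.120), and the highest r was 0.74 in non_failing (adjusted exact permutation p = 0.120). Both values of a mouse share a library and its scaling factor, and the relation passed on the CPM scale only.

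**Figure D4:**
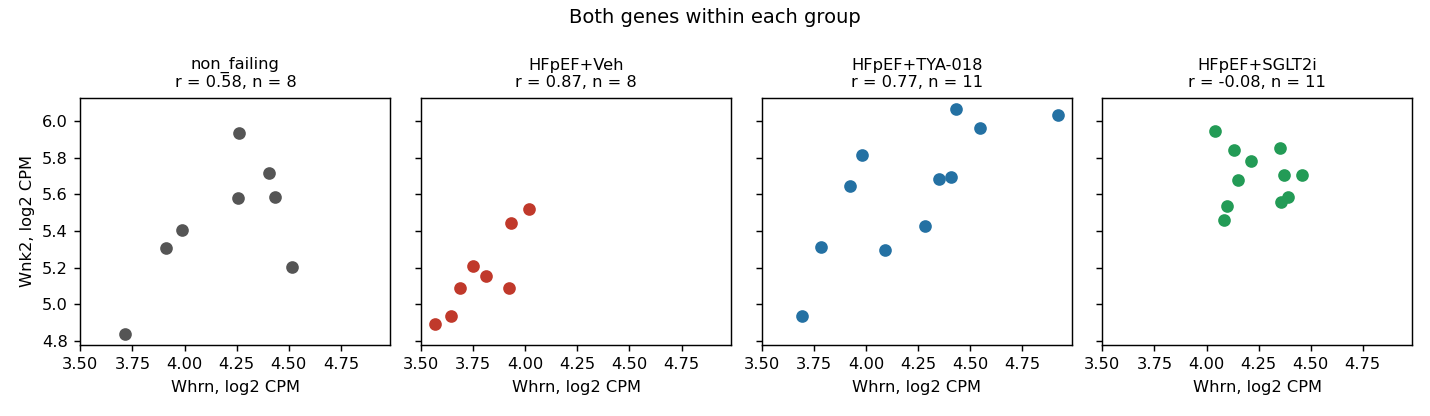
Log2 CPM of Wnk2 against that of Whrn, 1 panel per group and 1 point per library, with Pearson's r and n in each panel title. Points rise together in HFpEF+Veh (r = 0.87) and HFpEF+TYA-018 (r = 0.77) and show no slope in HFpEF+SGLT2i (r = -0.08).

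The other genes of the pathway of Wnk2 had few calls, as had all genes. Of 18 other tested genes of the WNK kinases and their regulators, 0 passed with either drug against vehicle in edgeR (1 with empagliflozin without V2532), near the 0.850% and 1.93% of all genes, and the median log2 fold change was 0.07 with empagliflozin and 0.09 with TYA-018, beside 0.01 and -0.01 over all genes. Wnk1, the most abundant WNK kinase here, averaged 55.1 ± 7.44 TPM (SD, n = 8) with vehicle and 59.8 ± 9.77 (SD, n = 8) in the non_failing mice. It averaged 49.1 ± 7.34 TPM (SD, n = 11) with TYA-018 and 54.5 ± 10.4 (SD, n = 11) with empagliflozin. Its log2 fold change against vehicle was 0.01 (SE 0.09) with empagliflozin and -0.09 (SE 0.09) with TYA-018. Wnk4, known from the distal nephron, stood between 3.94 and 4.18 TPM in all 4 group means, with log2 fold changes of 0.16 (SE 0.13) and 0.09 (SE 0.13). Wnk3 had at most 10 counts in a library and was not tested. Wnk1 and Wnk4 were not picked on these libraries as Wnk2 was, so no contrast between the 3 kinases is drawn.

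Among the kinases below the WNKs, calls were made against non_failing and not against vehicle. Stk39 (SPAK) averaged 12.9 ± 2.82 TPM (SD, n = 8) with vehicle, below the 18.9 ± 4.38 (SD, n = 8) of non_failing mice. It fell in HFpEF+Veh by 0.65 on the log2 scale (SE 0.14, edgeR adjusted p = 0.0062), with all 8 libraries below the non_failing mean. It was lower than non_failing also in HFpEF+SGLT2i (-0.51, SE 0.13, adjusted p = 0.0137), where 10 of 11 libraries lay below. With TYA-018 against vehicle its log2 fold change was 0.35 (SE 0.13, adjusted p = 0.155), all 11 libraries above the vehicle mean. Oxsr1 (OSR1) was higher in HFpEF+SGLT2i than in non_failing by 0.22 (SE 0.06, adjusted p = 0.0239), in 11 of 11 libraries, and by 0.18 (SE 0.06, adjusted p = 0.211) against vehicle.

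The cation-chloride cotransporters, which SPAK and OSR1 phosphorylate, are described by 6 tested genes, and 0 of them passed in any of the 6 comparisons by edgeR. Slc12a2, the widely expressed sodium-potassium-chloride importer, averaged 3.88 TPM in HFpEF+Veh and 4.00 TPM in HFpEF+SGLT2i. The potassium-chloride exporters Slc12a7 and Slc12a4 averaged 27.3 and 15.9 TPM in HFpEF+Veh and 26.3 and 15.4 TPM in HFpEF+SGLT2i. Slc12a5, the neuronal exporter, averaged 0.741 TPM in non_failing and 0.504 TPM in HFpEF+Veh (log2 fold change -0.80, SE 0.26, edgeR adjusted p = 0.0863). Slc12a8 and Slc12a9, less characterised members, had log2 fold changes of -0.26 and 0.03 with empagliflozin against vehicle. The kidney transporters Slc12a1 and Slc12a3 had at most 2 and 12 counts in a library and were not tested.

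**Figure D5:**
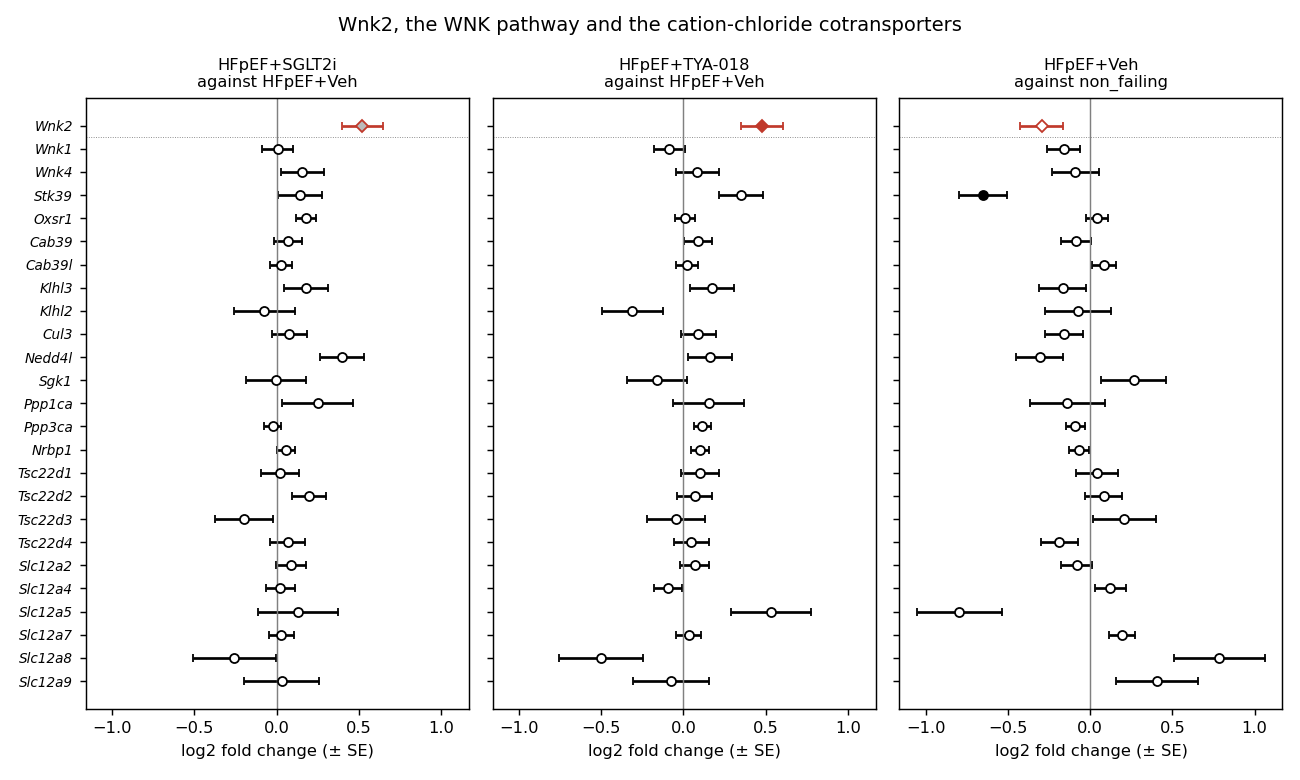
Log2 fold change ± SE of Wnk2 (diamond), the WNK pathway and 6 cation-chloride cotransporters in 3 comparisons. Filled symbols passed an adjusted p of 0.05 and open ones did not, and the grey diamond is the choosing contrast, which carries no test. Of the genes below the dotted line, Stk39 in HFpEF+Veh against non_failing is the only one filled in these 3 panels.

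The whirlin partners Myo15 and Pdzd7 were scarce in the ventricle. Myo15 had at most 13 counts in a library and was not tested, and Adgrv1 was not analysed here. Pdzd7, another scaffold with PDZ domains, averaged 0.379 TPM in non_failing, 0.491 in HFpEF+Veh, 0.395 in HFpEF+TYA-018 and 0.511 in HFpEF+SGLT2i. Its log2 fold change with empagliflozin against vehicle was 0.20 (SE 0.26, edgeR adjusted p = 0.844). Of 15 tested partners and stereocilia genes, 0 passed with either drug against vehicle, near the 0.850% and 1.93% of all genes, and the median log2 fold change was 0.05 with empagliflozin and -0.13 with TYA-018. Eps8, which caps and bundles actin, was higher in HFpEF+SGLT2i than in non_failing by 0.56 (SE 0.16, adjusted p = 0.0267, 11 of 11 libraries), and it had 0.50 (SE 0.17, adjusted p = 0.103) in HFpEF+Veh against non_failing. Whrn had -0.41 in that comparison, the opposite sign. Cdh23, a tip-link cadherin, had a log2 fold change of -0.67 in HFpEF+TYA-018 against non_failing (SE 0.17, adjusted p = 0.0115, 10 of 11 libraries). Whrn, with group means from 4.15 to 5.31 TPM, was thus present where its motor partner Myo15 was near 0.

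ERK feedback targets, genes that follow the activity of the pathway Wnk2 has been described to restrain, had 14 tested members. With empagliflozin against vehicle 0 passed in edgeR (2 with library size alone, 1 without a filter on low counts, and 1 without V2555 or V2571), 4 fold changes were positive and 10 negative, and the median was -0.11. With TYA-018 the counts were 3 positive and 11 negative with a median of -0.11, and 0 passed. Against non_failing, HFpEF+SGLT2i had 2 members lower, the cell cycle regulator Ccnd1 (-0.51, SE 0.15, adjusted p = 0.0303) and Phlda1 (-0.51, SE 0.15, adjusted p = 0.0367), each in 11 of 11 libraries. Over the 4 lists together, 54 genes other than Whrn and Wnk2 were tested. The share that passed was 0% with either drug against vehicle, beside 0.850% of all genes with empagliflozin and 1.93% with TYA-018. DESeq2 also called 0 of the 54 in both, while 7 and 8 had an unadjusted p under 0.05 in edgeR, and library size alone called 2 and 4. The share was 1.85% in HFpEF+Veh against non_failing, beside 3.15% of all genes. It was 1.85% in HFpEF+TYA-018 against non_failing (1 gene, but 4 with DESeq2 or without V2501 and 0 with limma), beside 7.39%, and 9.26% (5 genes) in HFpEF+SGLT2i against non_failing, beside 6.45%. Without V2507 that count was 1.

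No neighbour on the chromosome passed as higher with either drug against vehicle. The 3 nearest tested genes on either side of Wnk2 by start were Ptpdc1, Phf2, Fam120a, Ninj1, Susd3 and Fgd3. Their log2 fold changes ran from -0.38 to 0.13 with empagliflozin and from -0.25 to 0.16 with TYA-018 against vehicle, and 0 of 6 passed in edgeR, near the 0.850% and 1.93% of all genes. The nearest around Whrn were Ambp, Col27a1, Akna, Atp6v1g1, Tnc and Pappa. Ambp, which encodes a plasma protein made by the liver, passed as lower with each drug against vehicle, but it stood at 70.0 TPM in V2523 and at most 0.551 TPM in the other vehicle libraries. The other 5 did not pass, with log2 fold changes from -0.35 to 0.21 with empagliflozin and -0.65 to 0.13 with TYA-018. Col27a1, a fibrillar collagen, was higher in HFpEF+Veh than in non_failing by 0.90 (SE 0.21, adjusted p = 0.00917), and Fgd3, a guanine nucleotide exchange factor, by 0.60 (SE 0.18, adjusted p = 0.0474). Of the 12 neighbours, 4 passed with TYA-018 and 5 with empagliflozin against non_failing, beside 7.39% and 6.45% of all genes. Among these Col27a1 (0.86 and 0.72) and Ninj1 (0.43 and 0.40) were higher with both drugs and Fgd3 (0.69) with empagliflozin. The others were lower, Ambp with both drugs (-6.27 and -5.51), Pappa with TYA-018 (-1.16) and Atp6v1g1 with empagliflozin (-0.19).

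The genes most like each member across mice were sought among 11121 others with an average log2 CPM of at least 1. Over all 38 libraries, Wnk2 itself had the highest Pearson r with Whrn (0.75), followed by Kcnh2 (0.74), the potassium channel of the rapid delayed rectifier current, and Dpf2 (0.69), a subunit of a chromatin remodelling complex. Kcnh2 averaged 19.8 TPM in non_failing, 17.0 in HFpEF+Veh, 20.9 in HFpEF+TYA-018 and 21.1 in HFpEF+SGLT2i. For Wnk2 the highest were Bag6 (0.78), Fntb (0.78) and Acot11 (0.77), with Whrn in place 4. Bag6 is a chaperone factor, Fntb the beta subunit of the farnesyltransferase, and Acot11 an acyl-CoA thioesterase. After each group mean was subtracted, Med24 (0.70), Syt7 (0.69) and Gramd4 (0.67) came first for Whrn, with Wnk2 in place 8 at 0.64. For Wnk2 they were Tns1 (0.82), Cnot4 (0.78) and BC024978 (0.77), with Whrn in place 71. These correlations share the library and its scaling in each point, and those over all 38 libraries also hold the low vehicle group that both genes were chosen on, so they are given as a description.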

How the data were processed

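Polyadenylated RNA of left ventricle tissue was sequenced from stranded libraries, and group and mouse number were taken from the sample titles. Mouse numbers differ between groups, so no samples were paired, and the labels name no batch. The authors quantified transcripts with salmon (version 1.6.0 per the submitters' processing notes) and summed them to genes. They deposited expected counts, which estimate the reads of each gene and need not be whole. They also deposited TPM, scaled by the authors to 1000000 transcripts and so corrected for length, and a table of effective lengths in bases. The labels name a human genome build and the methods the mouse assembly GRCm38, and the listed symbols are those of mouse. Reads shared between transcripts are divided by a model, so effective lengths are estimates. Unmapped columns of sample values numbered 0.

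The 2 genes, the gene lists and the tests were chosen with earlier results of these data known. Expected counts were rounded, filtered with filterByExpr and scaled with TMM, and all 38 libraries were fitted in 1 model with edgeR 4.0.16 in R 4.3.3 (quasi-likelihood test, Benjamini-Hochberg adjustment over 13765 genes, threshold 0.05). The model was tested on simulated counts. Log2 CPM used a prior count of 2. Lengths and correlations within groups were tested by two-sided permutation, exact where a group had 8 mice and with 100000 resamples otherwise, in Python 3.11.15. Promoter windows came from RefSeq (GRCm38.p6) and gene positions from GENCODE M21. Named genes were Whrn and Wnk2, genes of the 4 lists that passed in any comparison with a fixed set of WNK kinases, Slc12a transporters and whirlin partners, 3 tested neighbours on each side, and the 3 genes most correlated with each member, and other genes are named as chosen after their values were seen. Alternatives were DESeq2 1.42.0, library size alone, a length offset, no filter, limma 3.58.1 on log2(TPM + 1) or log2(TPM + 0.1) for genes with a count in 90% of libraries, a fit of the 2 groups compared, each library left out, and V2523 with V2532 left out. Some genes of the lists are not reported here.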

Additional observations from a re-analysis of the deposited data

Results flagged for a closer look

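The effective length of Wnk2 in the vehicle library V2532 was 5115 bases, and the nearest vehicle library was at 4282 bases. The gap was 0.665 of the group's whole range, above the limit of 0.526 for 8 libraries. Of 8 such sets of values checked (TPM and effective length of each gene in the groups of 8), 1 was marked, and chance marks about 1 in 20. V2532 was also the highest vehicle library for both genes in CPM. The median effective length of all genes in V2532 was 10.5% above its mean over libraries, the longest shift among the vehicle libraries.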

How the results depend on the processing

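The fold changes of Whrn and Wnk2 against vehicle kept their direction in all alternatives run, and their calls with TYA-018 did not. In HFpEF+SGLT2i against HFpEF+Veh they ran from 0.31 to 0.45 (Whrn) and 0.45 to 0.57 (Wnk2) over 8 alternatives, and from 0.42 to 0.49 and 0.48 to 0.58 when single libraries were left out. In HFpEF+TYA-018 against HFpEF+Veh both calls were lost with library size alone (0.34 for Whrn, 0.36 for Wnk2), limma on log2(TPM + 1) (0.30, 0.40), limma on log2(TPM + 0.1) (0.33, 0.42), the 2 groups alone (0.46, 0.48) and without V2523 and V2532 together (0.47, 0.50), with adjusted p up to 0.196. Leaving out 1 library gave 0.37 to 0.51 for Whrn (adjusted p 0.0121 to 0.0701, lost without V2523, V2527, V2529, V2530, V2543, V2546, V2549, V2550 or V2552) and 0.43 to 0.53 for Wnk2 (0.0100 to 0.0798, lost without the same libraries or V2526, V2547 or V2548). For Whrn in HFpEF+Veh against non_failing, DESeq2 gave -0.41 past the threshold, and single libraries left out gave -0.48 to -0.36, past it without V2507, V2532, V2550 or V2555. Whrn in HFpEF+TYA-018 against non_failing turned to -0.014 with library size alone and ran from -0.038 to 0.10 without single libraries, negative without V2507 or V2550. Library size alone moved the median log2 fold change of all genes from -0.01 to -0.14 in HFpEF+TYA-018 against HFpEF+Veh. Relative to that median, Whrn was at 0.47 with either scaling and Wnk2 at 0.49.

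Counts of genes past the threshold depended more on the choice. In HFpEF+SGLT2i against HFpEF+Veh, 117 became 457 without a filter, 0 with limma at either pseudocount (1 or 0.1), 3 with the 2 groups alone and 20 without V2523 and V2532. Single libraries left out gave 2 (V2523) to 175. In HFpEF+TYA-018 against HFpEF+Veh, 266 became 1096 with library size alone, 618 without a filter, 402 with DESeq2, 42 and 22 with limma, 58 with the 2 groups alone and 90 without V2523 and V2532, and 167 (without V2530) to 393 without single libraries, V2547 also lowering it over 1.5 times. In HFpEF+Veh against non_failing, 433 became 916 without V2523 and V2532. Limma gave 601 and 620 for HFpEF+TYA-018 and 530 and 559 for HFpEF+SGLT2i, each against non_failing. For HFpEF+SGLT2i against HFpEF+TYA-018, 0 became 5 with a length offset, 187 with DESeq2 and 0 to 17 without single libraries (17 without V2570, 9 without V2565, 1 without V2509, V2548, V2555 or V2559). The share of calls that were higher with library size alone was 2.68% (15.4% with TMM) for empagliflozin and 2.28% (43.2%) for TYA-018 against vehicle, 28.5% (54.2%) for TYA-018 against non_failing and 79.5% (56.1%) for vehicle against non_failing. Genes of the 4 lists past the threshold numbered 5 in HFpEF+SGLT2i against non_failing and 2 with limma, and single libraries left out gave 1 to 6. The cause of these changes was not tested.

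Dividing lengths by the library median turned the log2 length difference of Wnk2 to -0.034 with HFpEF+SGLT2i against HFpEF+Veh and to -0.0068 against non_failing. Without single libraries, length differences of Whrn ran from -0.064 to 0.011 (HFpEF+TYA-018 against HFpEF+Veh) and -0.0056 to 0.049 (HFpEF+SGLT2i against non_failing). Those of Wnk2 ran from -0.0030 to 0.055 (HFpEF+SGLT2i against HFpEF+Veh), -0.035 to 0.023 (HFpEF+Veh against non_failing), -0.12 to -0.080 (HFpEF+TYA-018 against non_failing, past the threshold without V2502), 0.0998 to 0.13 (HFpEF+SGLT2i against HFpEF+TYA-018, past it without V2543, V2548 or V2561) and -0.0077 to 0.036 (HFpEF+SGLT2i against non_failing). In log2(TPM + 1), r within groups was 0.74 in non_failing, 0.17 in HFpEF+Veh, 0.62 in HFpEF+TYA-018 and 0.045 in HFpEF+SGLT2i. Without single libraries r ran from 0.19 to 0.85 in non_failing (past the threshold without V2502), 0.79 to 0.98 in HFpEF+Veh (adjusted exact permutation p up to 0.0599, lost without V2523 or V2532), 0.69 to 0.84 in HFpEF+TYA-018 (lost without V2555) and -0.33 to 0.22 in HFpEF+SGLT2i (positive without V2574). No paired analysis was possible because the mouse numbers differ between groups.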
